A study of Caenorhabditis elegans with 2 samples.

Results

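Of 19973 protein-coding genes of Caenorhabditis elegans, 95 (0.476%) held at least 3 binding sites of TRA-1 within the gene or shortly before it, and 91 of these are described here. A site is the summit of a peak in the stricter of the deposited lists made from both replicates, and the territory of a gene covers the gene itself and the 2000 bp before its start. The genes were chosen by their number of sites in that list. By design, 7 genes were set aside (tra-1, daf-16, dmd-7, daf-12, lin-14, hbl-1 and lin-41), of which 4 also held 3 or more sites. The 91 genes held 329 of the 2703 sites in the list. The number of sites chose these genes, so their site counts are a description and were not tested.

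TRA-1, a zinc finger protein related to GLI factors, acts at the end of the worm's sex determination pathway, where it promotes hermaphrodite development and represses genes of male development. It acts in somatic tissues and the germ line, and it binds a short DNA word related to that of the vertebrate GLI proteins. A gene with several sites can bring a regulator to several of its promoters and introns, and a long gene has more room for such sites than a short one.

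The animals were whole L4 larvae, aged 48 hours, of strain DZ840, in which CRISPR inserted a biotag::GFP::TEV::3xflag tag at tra-1. They had been synchronized as starved L1 larvae after bleaching, and their sex was not collected. Chromatin was precipitated with an antibody to GFP in 2 biological replicates, which form 1 group, so no comparison between conditions was made. Whole larvae mix all tissues, so a weak site bound in many cells and a strong site bound in few cannot be told apart.

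The genes ranged from 3 to 10 sites, with 53 genes at 3, 20 at 4, 13 at 5 and 5 at 6 or more. Just outside the threshold lay 317 genes with 2 sites, and 1820 genes held 1 site. In all, 11.2% of protein-coding genes held at least 1 site. The gene with the most was mnk-1, with 10, followed by egl-27, pkg-2 and zfp-1 with 7 each and hlh-30 with 6. A few of the genes counted the same sites, since 8 of them, in 4 groups, overlap one another: mnk-1 with pro-1, pck-2 with R11A5.6, herc-1 with Y48G8AL.13, and pdtf-1 with T26A8.4. The 91 genes therefore stand at 87 separate loci. Of their sites, 284 fell in the territory of 1 protein-coding gene and 45 in the territory of more, and 62 genes shared none of their sites with another protein-coding gene.

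Sequences at the summits show what these sites look like. The first set gives the summit and 50 bases to each side for the strongest site of 7 of the genes, read on the plus strand of the WBcel235 genome from RefSeq and chosen for their signal or number of sites. Capitals mark the word GAGACGC, the word CTCTCTC and the word CACGTG on either strand, which were searched in all sites.
fbxl-5 intron: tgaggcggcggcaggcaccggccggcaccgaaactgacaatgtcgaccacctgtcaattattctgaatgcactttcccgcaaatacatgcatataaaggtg
puf-9 upstream: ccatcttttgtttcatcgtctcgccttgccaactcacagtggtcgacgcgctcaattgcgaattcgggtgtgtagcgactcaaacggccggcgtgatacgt
egl-27 intron: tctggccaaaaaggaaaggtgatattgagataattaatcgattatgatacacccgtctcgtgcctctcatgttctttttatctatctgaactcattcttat
Y111B2A.12 intron: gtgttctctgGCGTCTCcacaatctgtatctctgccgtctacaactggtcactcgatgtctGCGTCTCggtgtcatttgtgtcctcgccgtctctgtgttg
tos-1 upstream: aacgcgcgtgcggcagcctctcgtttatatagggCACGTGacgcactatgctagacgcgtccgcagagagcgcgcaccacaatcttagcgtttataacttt
daf-5 intron: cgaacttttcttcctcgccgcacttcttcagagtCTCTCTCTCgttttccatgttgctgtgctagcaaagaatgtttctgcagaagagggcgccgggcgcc
pkg-2 intron: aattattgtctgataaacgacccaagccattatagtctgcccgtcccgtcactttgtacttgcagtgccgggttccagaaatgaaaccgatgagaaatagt

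Signal here means the peak value that the authors deposited, which is relative to a control and has no fixed unit. The fbxl-5 site at chrV:7744222-7744322 carried the strongest signal of any site in these genes, and the Y111B2A.12 site at chrIII:12612606-12612706 held GAGACGC on the minus strand at 2 places. The tos-1 site at chrV:9344220-9344320 held CACGTG shortly before the gene start. The remaining windows were chrX:5841257-5841357 for puf-9, chrII:6842816-6842916 for egl-27, chrII:14040363-14040463 for daf-5 and chrIV:8527758-8527858 for pkg-2. Of these 7, none held the TRA-1 core TGGGTGGTC, even with 1 mismatch allowed.

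The core was found at few of the sites. Within 50 bp of the summit and on either strand, TGGGTGGTC with at most 1 mismatch lay at 10 of the 329 sites (3.04%, Wilson 95% interval 1.66 to 5.50), against 48 of the 2374 other sites of the list (2.02%, 1.53 to 2.67). The intervals overlap. They cover counting error only. How often the core with 1 mismatch falls in random sequence of such lengths was not measured. The shares given here therefore show no excess over random sequence. With the whole peak searched, 5.17% of the members' sites held it. Without sites near tRNA, snRNA or snoRNA genes, 83 genes remained and 2.31% of their sites held it. The 10 sites belonged to 9 genes, abts-4, mthf-1, hlh-30, T28B11.1, Y111B2A.12, scd-1, F55H12.7, T22A3.12 and gcy-35, the last with 2 of them. Both gcy-35 sites lay at tRNA genes, and their windows shared a run of 55 bases. A set of 6 of the 10 sites, all in introns, is shown, with the core and the words above or TGATAAG in capitals.
T28B11.1: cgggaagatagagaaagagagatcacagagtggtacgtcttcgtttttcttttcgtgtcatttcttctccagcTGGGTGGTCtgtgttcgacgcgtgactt
mthf-1: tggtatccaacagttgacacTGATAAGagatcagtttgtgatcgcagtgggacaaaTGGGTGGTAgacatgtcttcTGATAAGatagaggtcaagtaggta
hlh-30: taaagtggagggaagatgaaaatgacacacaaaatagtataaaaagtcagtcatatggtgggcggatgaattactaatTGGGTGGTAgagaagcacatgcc
abts-4: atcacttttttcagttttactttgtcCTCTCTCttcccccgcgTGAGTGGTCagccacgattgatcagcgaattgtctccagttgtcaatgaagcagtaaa
Y111B2A.12: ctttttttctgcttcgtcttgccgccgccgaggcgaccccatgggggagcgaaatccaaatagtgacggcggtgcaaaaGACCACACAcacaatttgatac
scd-1: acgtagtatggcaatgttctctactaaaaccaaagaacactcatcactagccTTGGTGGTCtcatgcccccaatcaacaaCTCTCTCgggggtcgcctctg

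The exact core stood at 1 site, in T28B11.1, an F-box protein gene, at chrV:10717417-10717517, with a deposited signal of 109, against 237 and 123 at the gene's other sites. The gene's strongest site was therefore not the one with the exact core. In mthf-1, the methylenetetrahydrofolate reductase gene of one-carbon metabolism, the core with a mismatch lay at the strongest of 5 sites (171), at chrII:7777467-7777567, beside TGATAAG on both sides. In hlh-30, which encodes the worm's TFEB-like regulator of autophagy and lipid use, it lay at chrIV:4019190-4019290, 15711 bp from the gene start, with a signal of 110.7. The sites of abts-4, an anion exchanger gene (chrX:6749262-6749362), of Y111B2A.12 (chrIII:12613608-12613708) and of scd-1 (chrX:12517448-12517548) had signals of 184, 98.6 and 95.9. The core of Y111B2A.12 is on the minus strand.

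The other words were spread over many of the genes. CTCTCTC lay at 41 member sites (12.5%, 9.32 to 16.5), against 7.88% of the other sites (6.86 to 9.03). GAGACGC lay at 9.12% of member sites (6.46 to 12.72), against 6.15% (5.25 to 7.19). CACGTG lay at 9.42% (6.72 to 13.1), against 6.91% (5.96 to 8.0), and TGATAAG at 8.51% (5.95 to 12), against 9.39% (8.28 to 10.6). Only for CTCTCTC did the 2 intervals not overlap, and no test was made. It occurred in 33 of the genes and at 2 or more sites in 9 of them.

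The genes span several kinds of function. By hand grouping made after the genes were known, 24 of the 91 (26.4%) encode proteins of transcription and chromatin, 16 act in signalling as kinases, phosphatases, cyclases or their partners, 17 in metabolism, transport or proteolysis, 8 are ubiquitin ligases or F-box and BTB proteins, 7 bind RNA or build ribosomes, 5 are structural or chaperone genes and 14 are other or not annotated. This grouping was not made for other genes, so its shares have no background. The highest signal per gene had a median of 162 in the transcription group, 148 in the signalling group and 118 in the metabolic group. The RNA-binding and ribosome group had 177 and the ubiquitin ligase, F-box and BTB group 170, both above the transcription group. Genes that are other or not annotated had 158, and structural or chaperone genes 144.

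Words in RefSeq product names, searched in the same way over all genes, gave narrower classes that do have a background. Names of DNA-binding transcription factors occurred in 14 of the 91 genes (15.4%), against 412 genes or 2.06% of all. Put the other way, 3.40% of those 412 genes (2.03 to 5.62) held 3 or more sites. Of the 14, ceh-60 had 2 regions once overlapping peaks were merged, and Y65A5A.1 had all 3 sites at tRNA genes. Kinase names occurred in 7 of the 91 (7.69%) and 2.82% of all genes, and phosphatase names in 5 (5.49%) and 1.28%. F-box or BTB names occurred in 5 (5.49%) and 3.23%. Of the genes so named, 3 or more sites were held by 1.25% of kinases (0.605 to 2.55) and 1.95% of phosphatases (0.837 to 4.49). For F-box or BTB genes it was 0.775% (0.332 to 1.80), an interval that covers the 0.476% of all genes. At least 1 site was held by 6.82% of F-box or BTB genes, against 11.2% of all genes. Territory length was not matched in these classes. Proteins named only as uncharacterized were 4 of the 91 (4.4%), against 9.57% of all genes. No member was among the 177 collagens (upper limit 2.12%) or the 1698 seven-transmembrane receptors (0.226%), of which 11.9% and 2.71% held at least 1 site. The median territories of these 2 classes were short, at 3.21 and 3.73 kb.

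Gene lists by function were counted in the same way. Of 579 genes on the lists of transcription factors, 11 were members (1.90%, 1.06 to 3.37), beside the 0.476% of all genes. They were ceh-60, crh-2, egl-27, egl-44, ets-4, fkh-7, hlh-30, nhr-19, nhr-48, sma-9 and zip-2, and the median territory of the 579 genes was 4.63 kb. The lists leave out the 7 genes set aside, some of which would belong to them. Among the 19 heterochronic genes, known for timing larval cell fates, 3 were members (15.8%, 5.52 to 37.6), namely kin-20, puf-9 and sea-2. The median territory of these 19 genes was 7.91 kb, and 2 of the 3 members kept 3 sites once overlapping peaks were merged. Members were 2 of 20 TGF-beta pathway genes, 2 of 58 muscle and cytoskeleton genes, 2 of 79 RNA-binding genes, and 1 each of the chromatin, synapse, detoxification and F-box lists. In all, 21 of the 91 genes were on a list.

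In the transcription and chromatin group, 95 gene-site pairs comprised 71 in introns and 21 upstream, and 21 of the 24 genes kept 3 sites once overlapping peaks were merged. The group holds zfp-1, the worm's AF10-like PHD finger protein, whose 7 sites all lay in introns. Their signals, in order along the gene, were 135, 194, 122, 4.04, 119, 125 and 29.9. The sites at 4.04 and 29.9 each overlapped the peak before them, so zfp-1 had 5 separate regions. Its strongest site, 4378 bp from the start, had signals of 114.7 in replicate 1 and 65.8 in replicate 2. The gene had 4 sites in the list of replicate 1 alone and 6 in that of replicate 2.

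The other leading gene of the group, egl-27, encodes an MTA-like protein of the kind found in histone deacetylase complexes. Its signals along the gene were 90.8, 94.8, 23.4, 65.8, 100.3, 380.5 and 86.7. A single intron site 7858 bp from the start thus stood well above the rest, with 236 in replicate 1 and 131 in replicate 2. Of the 7 sites, only this one was also in each replicate's own list. The gene has 14 annotated transcript starts, and a single site was found within 250 bp of one of them.

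For hlh-30, the 6 signals along the chromosome were 110.7, 93.7, 169, 109, 134 and 87.3, a narrow range with no overlapping peaks. The last of these lay 149 bp upstream of the gene start, and the others were in introns. The replicates' own lists each held 3 sites of hlh-30. The sites of daf-5, the Sno/Ski-like partner of TGF-beta signalling, all lay in introns, with signals of 258, 128, 10.5, 88.2 and 134. Those of crh-2, a CREB-family gene, were 93.0, 155, 145, 85.3 and 22.9, also all in introns. In both genes the weakest site overlapped a stronger one. The gene din-1, which encodes a corepressor of the nuclear receptor DAF-12, had signals of 102.5, 169, 11.9, 102 and 110, of which 3 sites lay within 100 bp of a snoRNA gene.

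Further DNA-binding genes had 3 or 4 sites each. The nuclear receptor gene nhr-19 had signals of 68.3, 270.1 and 81.6 in introns. The Schnurri-like gene sma-9, of TGF-beta signalling in body size, had 201, 24.7, 144 and 94.7. The PBC-class homeobox gene ceh-60, known for control of vitellogenin genes, had 170 in an intron and 102 and 6.1 upstream, the latter pair overlapping. The rest of the transcription factors on the fixed lists were ets-4, egl-44, fkh-7, nhr-48 and zip-2, with 3 or 4 sites each and a strongest signal between 125 and 194. The gene sea-2, known as an autosomal signal in sex determination, had 86.3 and 15.4 at overlapping peaks and 163 further along. The group also includes jun-1, let-607, let-526, saeg-1, pdtf-1, Y105C5A.15, and the fork-head or bHLH genes C34B4.2, W06H8.6 and Y65A5A.1. The strongest site was 224 in W06H8.6 and 150.6 in saeg-1.

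Among signalling genes, mnk-1, the worm's MAPK-interacting kinase of the family that acts on the cap-binding factor eIF4E, had the most sites of all. Its signals along the chromosome were 88.5, 97.8, 89.9, 88.3, 72.1, 30.5, 83.0, 151.8, 103.6 and 81.6. Many modest sites made up the count, and after merging 9 regions remained. They covered the whole gene, with 2 sites in the 3' UTR, 2 in coding exons, 4 in introns and 2 upstream. The 2 sites in the 3' UTR also lay upstream of pro-1, a ribosome synthesis gene. Of the 10 sites, those with 151.8 and 103.6 were in both replicates' own lists. The list of replicate 1 held 2 sites in mnk-1 and that of replicate 2 held 6.

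The cGMP-dependent kinase gene pkg-2 had signals of 254, 121, 229, 84.2, 119, 109 and 88.8. All 7 lay in introns from 6914 to 14235 bp from the start, none overlapped, and each replicate's own list held 4. Of the other kinases, kin-1, the catalytic subunit of protein kinase A, spread 5 intron sites of 68.5 to 129.1 over 23.1 kb. The list of replicate 1 held no site in kin-1 and that of replicate 2 held 1, and the strongest site was in neither. The casein kinase gene kin-20, of the heterochronic pathway, had 102, 113 and 81.8 in introns. The AMP-activated kinase gene aak-2 had 4 sites that merged into 2 regions.

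The phosphatase group included ppfr-1, a regulatory subunit of protein phosphatase 4, whose 5 intron sites ran from 95 to 257. It also included vhp-1, a MAP kinase phosphatase, whose signals were 75.2, 74.2, 184, 4.0 and 121. The PP1 regulatory subunit gene H18N23.2 had 75.9, 147, 109, 114 and 152.3. The gene egl-30, the Gq alpha subunit of synaptic and muscle signalling, had 212 just upstream and 140 and 165 within the gene. Y43F8B.2, whose product carries a GSKIP domain, had 4 sites of 204.3, 270, 213 and 151.7, each present in both replicates' own lists. The remaining signalling genes were lfe-2, tax-6, scpl-1, gcy-35, pix-1 and tbc-12.

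The RNA-binding and ribosome group held larp-1, puf-9, ncl-1, pro-1, unk-1, T26A8.4 and T23B5.3. The Pumilio-family gene puf-9, which acts in the heterochronic pathway, had 121 and 390.4 upstream and 92.6 in a coding exon. Its strongest site had signals of 233 in replicate 1 and 140 in replicate 2. The La-related gene larp-1 had 209 upstream and 85 and 6.9 in an intron, the last pair overlapping.

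Of the ubiquitin, F-box and BTB genes, fbxl-5 carried the strongest site of all the members, an intron site 1363 bp from the start with a signal of 526 in the list of both replicates, 342 in replicate 1 and 173 in replicate 2. Its remaining sites had 164, 107, 174 and 94.0. The BRCA1 gene brc-1 had 127, 180 and 109, and all 3 were also in the list of each replicate. The group also includes mfb-1, herc-1, F26F12.3, kel-3 and ivns-1. Outside these groups, the strongest signals were 379 in Y111B2A.12, 367 in pqn-41, a polyglutamine gene known from the death of the linker cell, and 352 in tos-1. The 5 sites of tos-1 had 130, 201, 150, 77.2 and 352, the last of them 67 bp upstream of the start. The 4 sites of pqn-41 had 236, 177, 367 and 255, all in introns and all in both replicates' lists. The other sites of Y111B2A.12, a WD-repeat gene, had 15.4 to 98.6. ZK470.2 had 5 intron sites of 70.6 to 221.

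**Figure D1:**
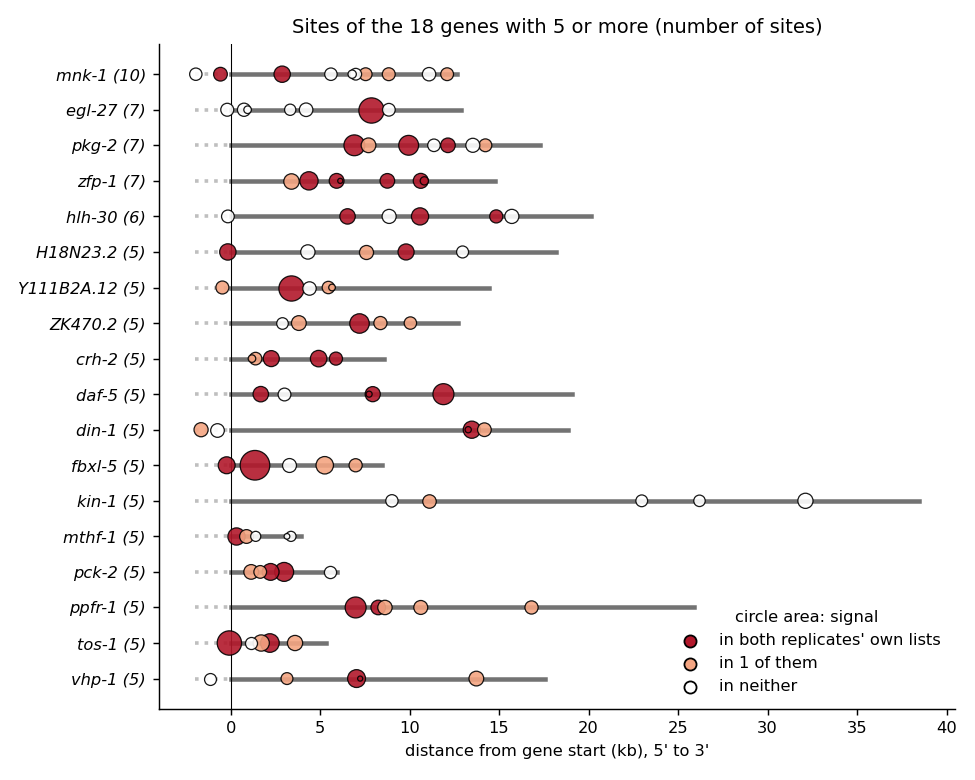
Position of each site, in kb from the gene start, in the 18 genes with 5 or more sites, with the gene drawn as a solid line and the 2000 bp upstream as a dotted one. Circle area grows with the deposited signal, and colour gives presence in the replicates' own lists. Single large circles stand out in egl-27, Y111B2A.12 and fbxl-5, whereas mnk-1 is a row of small ones.

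Metabolic genes had short territories for their number of sites. Their median territory was 7.38 kb, against 14.9 kb in the signalling group and 14.5 kb in the transcription group. Once overlapping peaks were merged, 11 of the 17 metabolic genes kept at least 3 sites, against 14 of 16 signalling and 21 of 24 transcription genes. The shortest of the genes with 5 sites was mthf-1, at 5.92 kb, whose signals were 51, 7.9, 50.2, 104.3 and 171. The list of replicate 1 held 2 sites in mthf-1 and that of replicate 2 held 1. The second thresholded list of both replicates also held 1, so the count of 5 belongs to the main list. The PEPCK gene pck-2, of gluconeogenesis, had 5 sites in 7.97 kb, with signals of 120, 87.2, 162, 208 and 79.1. Of these, the middle 3 were all the sites of R11A5.6, a small uncharacterized gene inside pck-2, so R11A5.6 adds no site of its own. The P-glycoprotein gene pgp-1 had 98.8 and 19.4 at overlapping peaks and 114 upstream. The group also includes abts-4, cox-6B, cpr-6, ech-1.2, gln-3, nadk-2, pmt-1, pnp-1, sms-3 and sur-5.

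Territory length went with the number of sites. The median territory of the 91 genes was 10.7 kb (quartiles 7.65 and 18.6), against 5.68 kb for genes with 2 sites, 4.69 kb for genes with 1 site and 3.95 kb for genes with none. Within the 91, it was 9.12 kb at 3 sites, 14.7 kb at 4 and 16.6 kb at 5 or more. Of the 91 genes, 60 were among the 1996 genes with the longest territories, the last of 10 groups of like size, where 3.01% of genes held 3 or more sites (2.34 to 3.85), and 14 were in the group before it. Across the 91 genes the Spearman correlation of sites with territory length was 0.37, and across 19966 genes it was 0.13. These are descriptions across genes, which share sites and are not independent.

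**Figure D2:**
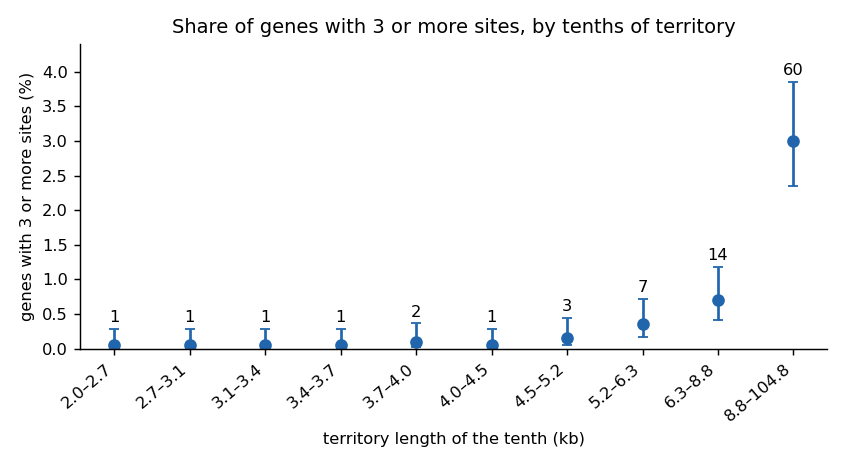
Share of protein-coding genes with 3 or more sites, in percent, in 10 groups of genes by territory length. Bars are Wilson 95% intervals and numbers above them are genes. The group of longest territories holds 60 of the 91 genes, at 3.01%, against 1 to 3 genes in each of the 7 groups of shortest territories.

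Most long genes held no site. Of 259 genes with territories of at least 20 kb, 19 were members (7.34%), and 193 (74.5%) had no site at all. The density of sites in the longest 1996 territories, 0.246 per 10 kb, was close to the 0.270 per 10 kb of the whole genome. At the other end, 10 members had territories under 5 kb, as did 67.8% of all genes. The members' own density had a median of 3.17 sites per 10 kb, or 11.8 times the number expected from the genome's mean, but the rule fixes this to be high in short genes. The 5 densest were R11A5.6 (12.8 per 10 kb), Y65A5A.1 (10), T22A3.12 (9.39), F55H12.7 (8.50) and mthf-1 (8.45). Of these 5, mthf-1 alone had more than 3 sites.

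The 5 sparsest were cox-6B (0.336 per 10 kb), vab-10 (0.672), anc-1 (0.697), herc-1 (0.884) and fkh-7 (1.08). The cytochrome oxidase subunit gene cox-6B, with an annotated territory of 89.2 kb, had sites of 102.9, 139 and 92.7, which lay 34165, 61227 and 86388 bp from the start. All of these sites also lay in the territory of another protein-coding gene. The count of cox-6B was 1.25 times that expected from the genome's mean density, the lowest ratio among the 91. The spectraplakin gene vab-10 and the giant nuclear anchor gene anc-1 are long cytoskeletal genes. Their signals were 81.2, 2.84, 80.0 and 82.8 for vab-10 and 100.6, 110 and 98.6 for anc-1. The fork-head gene fkh-7 had 194, 79.7 and 169.5 in introns.

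**Figure D3:**
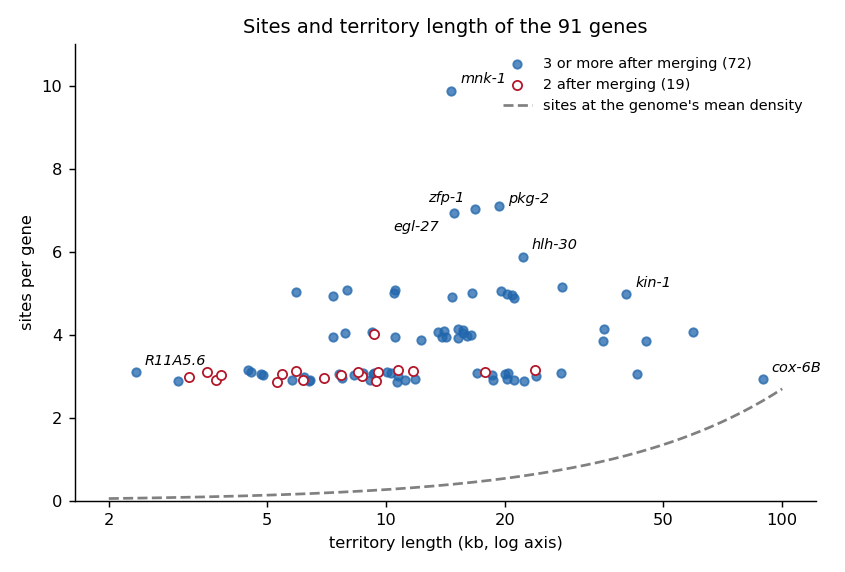
Sites per gene against territory length in kb (log axis) for the 91 genes, with points spread slightly up and down to part them, and the number expected at the genome's mean density as a dashed curve. Open points are the 19 genes left with 2 sites after merging, all of them with 3 or 4 sites before. From R11A5.6 at 2.34 kb to cox-6B at 89.2 kb, every gene lies above the curve. The rule fixes this, because the curve reaches only 2.40 sites at the longest of these territories.

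Overlapping peaks added to the counts. Of the 329 sites, 76 lay in 38 pairs of overlapping peaks, with summits 199 to 256 bp apart (median 203), and 298 of the 329 peaks had the same width of 304 bp. In each pair 1 site was much weaker. The stronger sites had a median signal of 91.3 (51 to 201), and the weaker ones 10.6 (2.84 to 30.9). All 38 member sites with a signal under 40 were such weaker neighbours, while the lowest of the other 291 was 50.2. In 32 of the 38 pairs, both sites overlapped the same strongest peak in the ranked list of replicate 1 and again in that of replicate 2, judged by equal signals. The weaker sites passed the authors' threshold nonetheless, and 22 of them had the top score of 1000.

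**Figure D4:**
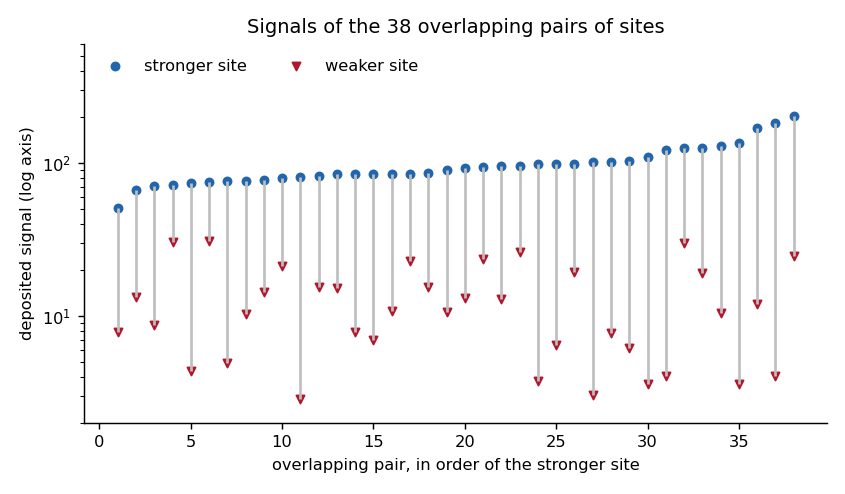
Deposited signal (log axis) of the stronger site (circle) and the weaker site (triangle) in each of the 38 pairs of overlapping peaks, in order of the stronger site. The weaker sites lie between 2.84 and 30.9, and the stronger ones between 51 and 201.

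Merging overlapping peaks turned the 329 sites into 291 regions. Of the 91 genes, 72 kept at least 3 (0.381% of all genes had 3 or more regions), and 19 had 2. Those 19 were aak-2, ceh-60, cpr-6, F31F7.1, F55H12.7, ivns-1, kel-3, larp-1, M106.3, mfb-1, pdtf-1, pgp-1, scpl-1, sea-2, sur-5, T22A3.12, T26A8.4, unc-23 and Y51A2D.13. Weaker neighbours made up 11.6% of the members' sites, against 3.58% of the other sites in the list, a difference that the rule favours because it counts sites. The 72 genes had a median territory of 14.1 kb and the 19 genes one of 7.69 kb. Of the 317 genes with 2 sites, 84 had both in 1 region.

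Sites of these genes lay mostly in introns. Of the 329, 221 (67.2%, 61.9 to 72) were in an intron, 81 (24.6%) upstream, 23 (6.99%) in a coding exon, 10 (3.04%) in a 5' UTR and 3 (0.912%) in a 3' UTR, where 9 sites count at 2 places because the genes that share them differ. Counted per gene, introns held 65.4% of the members' 341 gene-site pairs and 22.6% of the pairs of genes with 1 or 2 sites, and the upstream 2000 bp held 24.0% and 66.8%. Genes of like length stood nearer, since in 1933 genes of the longest territories with under 3 sites introns held 54.2% of the pairs and upstream sequence 36.7%. The territories differed in make-up too, as introns made up 63.8% of the members' territories, 60.2% of those of the 1933 long genes and 39.8% of those of genes with 1 or 2 sites. Per 10 kb the members had 4.51 sites in upstream sequence, 5.05 in 5' UTRs, 2.57 in introns and 0.952 in coding exons. Sites were thus densest in and before the 5' UTR and most numerous in introns.

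**Figure D5:**
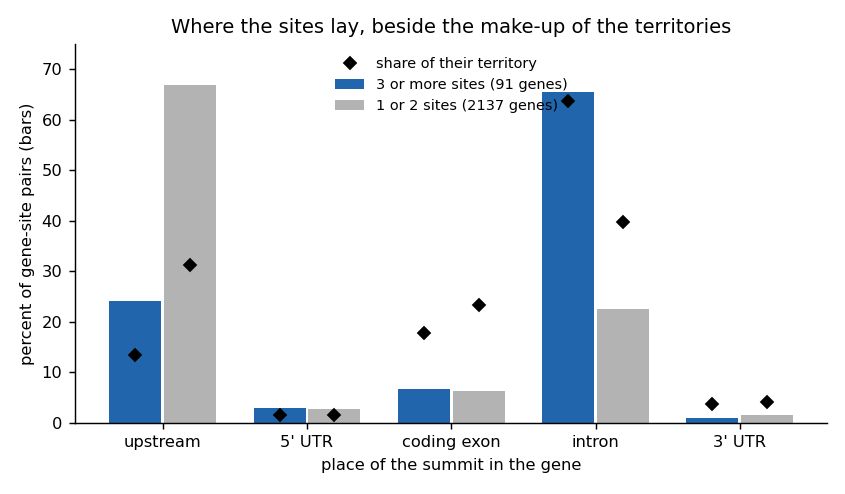
Share of gene-site pairs by place of the summit, in percent, for the 91 genes with 3 or more sites (dark) and the 2137 genes with 1 or 2 (light), with the share of their territories taken by each place as diamonds. In the 91 genes introns hold 65.4% of pairs and 63.8% of territory, and upstream sequence 24.0% and 13.4%.

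Of the 91 genes, 79 had an intron site, 49 an upstream site and 37 both. Sites lay only in introns in 31 genes and only upstream in 5. In introns common to all transcripts of a gene, 148 of 219 summits (67.6%) were in the longest such intron and 139 (63.5%) in the first part of the gene up to its middle. How much of the intron sequence lay in these places was not measured, so the shares show no preference for them. At least 2 annotated transcript starts were present in 84.6% of the 91 genes, against 50.5% of genes with 2 sites, 37.5% of genes with 1 site and 26.3% of all genes. The share went up with the number of sites, as territory length did. Of the members' gene-site pairs, 18.2% lay within 250 bp of a start of the gene, and 45 of the genes had no such site. The strongest site was in an intron in 57 genes, upstream in 32 and in a 5' UTR in 2.

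Small RNA genes lay beside some of the sites. Within 100 bp of a tRNA, snRNA or snoRNA gene were 18 member sites (5.47%), 14 of them at tRNA and 4 at snoRNA genes, against 15% of the other sites. They fell in 8 genes, each of which would have under 3 sites without them. In gcy-35, a soluble guanylate cyclase gene, and in pix-1, tbc-12 and Y65A5A.1, all 3 sites were at tRNA genes inside or before the gene. The windows of pix-1 and tbc-12, which were chosen after their values were seen, are shown because their sites resemble each other, with GGTTCGA, the usual B box word of tRNA genes, in capitals.
pix-1: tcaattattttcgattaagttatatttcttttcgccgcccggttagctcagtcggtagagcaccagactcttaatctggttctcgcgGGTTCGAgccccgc
pix-1: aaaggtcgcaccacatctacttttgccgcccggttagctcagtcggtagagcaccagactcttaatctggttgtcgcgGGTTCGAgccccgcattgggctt
pix-1: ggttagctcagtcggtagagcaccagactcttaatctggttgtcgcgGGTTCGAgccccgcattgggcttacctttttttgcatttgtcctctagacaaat
tbc-12: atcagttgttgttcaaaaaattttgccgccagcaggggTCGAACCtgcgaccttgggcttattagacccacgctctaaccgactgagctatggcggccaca
tbc-12: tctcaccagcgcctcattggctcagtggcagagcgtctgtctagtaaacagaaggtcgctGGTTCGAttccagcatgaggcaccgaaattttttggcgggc
tbc-12: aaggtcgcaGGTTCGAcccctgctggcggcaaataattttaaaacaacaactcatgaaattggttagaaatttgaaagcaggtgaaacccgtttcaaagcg

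In pix-1, a gene of the PIX exchange factor family, the sites at chrX:13729869-13729969, chrX:13730330-13730430 and chrX:13730782-13730882 had signals of 74.2, 143 and 91.8. The last pair of windows shared a run of 70 identical bases, and the first window shared 48 with the middle one and 41 with the last. In tbc-12, a Rab GTPase-activating protein gene, the sites at chrX:2526195-2526295, chrX:2528032-2528132 and chrX:2531404-2531504 had 85.7, 108 and 128, and the first and last shared 33 bases on opposite strands. In gcy-35 the shared runs reached 74 bases. Of 492 pairs of separate sites within a gene, 8 shared at least 15 bases, 7 of which had both sites at tRNA genes, and the median was 7. The eighth was in brc-1, with 25 bases on opposite strands. How reads in such repeated sequence were placed is not given in the sources used here. GGTTCGA stood at 12 of the 14 member sites near tRNA genes and at 13 of all 329.

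The replicates' own lists held fewer of these genes. In the list of replicate 1 alone, 37 of the 91 genes had 3 or more sites and 81 had at least 1. Over all protein-coding genes, 50 (0.25%) had 3 or more in that list and 1517 (7.6%) at least 1. In the list of replicate 2 alone, 19 of the 91 had 3 or more and 80 at least 1. Over all protein-coding genes, these were 29 (0.145%) and 1243 (6.22%). The 14 genes with 3 or more in both lists were pkg-2, zfp-1, hlh-30, Y111B2A.12, crh-2, daf-5, pck-2, ppfr-1, Y43F8B.2, pqn-41, saeg-1, R11A5.6, W06H8.6 and brc-1. F26F12.3 and ercc-1 had none in either list, and they were named after their values were seen. The second thresholded list of both replicates gave 131 genes with 3 or more sites after the same genes were set aside (0.671% with them), among which were 73 of the 91, and 12.9% of all genes had at least 1 site in it.

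Single sites of these genes were about as repeatable as the rest. Of the 329, 108 (32.8%) overlapped a peak in both replicates' lists and 113 (34.3%) in neither, against 35.6% and 34.7% of the other 2374 sites. The median signal was 100.6 at member sites and 106.1 at other sites, and 46.5% and 49.2% had an irreproducible discovery rate (IDR) of at most 0.001. Signals of replicates 1 and 2 were within 2-fold of each other at 93.2% of the 325 member sites with both, and at 94.5% of other sites. Over those 325 sites the Spearman correlation of the replicates was 0.52, as a description. Overlapping peaks share their replicate peaks. With the merged, stricter, second and each replicate's own list, 7 genes had 3 or more sites every time, namely pkg-2, zfp-1, hlh-30, daf-5, pck-2, Y43F8B.2 and pqn-41.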

How the data were processed

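Chromatin immunoprecipitation of GFP-tagged TRA-1 followed by sequencing was done in 2 biological replicates. The authors deposited peak lists on ce11, per the file names. Neither the aligner nor the peak caller is given in the sources used here. In the deposited lists a score, at least 830 in the main list, rises as the irreproducible discovery rate falls, and a signal gives peak height relative to a control. The −log10 rate deposited in the ranked list gave the limit of 0.001. Depth is unknown, since no read counts come with the peaks.

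Summits were assigned with Ensembl release 115 of WBcel235, whose sequence ce11 shares, with Python 3.11.15, numpy 2.4.6, pandas 2.3.3 and scipy 1.17.1. Coordinates are 1-based. Replicate signals are those of the strongest overlapping peak in each replicate's own ranked list, and 2-fold ratios compare these. Product names are from RefSeq. No significance test was made. Wilson 95% intervals cover counting error only. The counting procedure was checked on simulated sites. Genes were named if they had 5 or more sites, one of the 10 strongest sites, one of the 5 highest or lowest densities, 3 or more sites in both replicate lists, a listed function or the core. The genes, gene lists and words were chosen with earlier results of these data known.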

Additional observations from a re-analysis of the deposited data

How the results depend on the processing

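The count of 91 genes depended on the peak list and the territory. It was 19 with the upper part of the list by signal, 20 at an IDR of at most 0.001, 216 with 5000 bp of upstream sequence and 53 without any, and 27 to 49 when one replicate was left out, the lower count from replicate 2 alone and the higher from replicate 1 alone. Under the other 8 alternatives it stayed within 1.5 times, from 70 to 131. The median territory was 14.1 kb after merging, 15.4 kb at the stricter IDR, 12.9 kb with each site given to the shortest territory, 11.9 kb without sites near small RNA genes and 10.5 to 11.9 kb with 1 replicate. The median density was 2.87 per 10 kb after merging, 3.36 in the second list, 2.58 at the stricter IDR, 3.06 with the shortest territory, 3.04 without sites near small RNA genes and 2.85 to 2.92 with 1 replicate. The intron share was 72.6% after merging, 77.5% at the stricter IDR and 69.2 to 74.4% with 1 replicate. The core share was 5.63% at the stricter IDR, 5.17% with the whole peak searched and 2.31% without sites near small RNA genes. It was 2.00% in the second list, 0.304% for the exact core and 1.16 to 1.26% with 1 replicate. Transcription factors among the genes numbered 2 at the stricter IDR and 3 to 5 with 1 replicate. The lists with fewer sites hold fewer genes by construction. No other cause was tested. No paired analysis was possible because the replicates form 1 group. Depth is unknown and limits which weak sites could be called.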

Other observations

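The genes lay on every chromosome. Chromosome I held 21 of the 91, or 0.730% of its genes, and the X chromosome 17, or 0.622%, while chromosome V held 12, or 0.240%. Of the members' sites, 17.9% were on the X chromosome, against 25.6% of the other sites.

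Some gene lists, counted without the 7 genes set aside, had no member. All 6 vitellogenin genes, which encode yolk proteins, held a site, and none held 3. Of 82 ribosomal protein genes, 34 (41.5%) held a site and none held 3. Their median territory was 2.76 kb. Of 1316 chemoreceptor genes, 29 (2.20%) held a site and none held 3. The insulin pathway list had none either, but its transcription factor gene daf-16, set aside by the rule, held 5 sites. Members were also absent from the lists of the Wnt, EGF and Notch pathways, of axon guidance, ion channels, collagens, molting, hedgehog-related genes, neuropeptides and their receptors, translation factors, heat shock and lectins, which with the lists above makes 16 of the 27. Of all genes, 0.476% held 3 or more sites. Among these 16 lists, only that of chemoreceptors had a Wilson upper limit (0.291%) under that share. For the others, having no member cannot be told apart from it. The median territory of the chemoreceptor genes was 3.65 kb. In the group of genes with territories of 3.36 to 3.66 kb, 0.0501% held 3 or more sites (0.00884 to 0.283). That share lies under the chemoreceptors' upper limit, so having no member cannot be told apart from it either.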
